A study of Mus musculus with 14 samples.

Results

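The 7 named transcripts of the myelin sheath (Mbp, Mobp, Mag, Cnp, Mog, Cldn11 and Mal) were followed through RNA sequencing of CD11b+ cells from the injured mouse brain. They were chosen by gene symbol from a list, with no expression value in the rule, and each matched 1 of the 33939 genes in the deposited table, so that the set holds 7 genes. CD11b+ cells are the microglia, macrophages and other myeloid cells that carry the integrin CD11b on their surface. They were pulled out of a dissociated hemisphere with magnetic beads.

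The study asked how loss of its targeted gene from Cx3cr1-expressing cells changes their transcriptome 3 days after traumatic brain injury (TBI). Control (Ctrl) mice carried Cx3cr1-CreER+/- alone, and knockout (cKO) mice carried Cx3cr1-CreER+/- with both copies of the targeted gene floxed. Male C57BL/6 mice of 8 to 12 weeks were used, and both genotypes, controls included, received tamoxifen and TBI. Cells came from the lesioned, ipsilateral hemisphere (IL) and from the non-lesioned, contralateral hemisphere (CL) at 3 days, giving 4 libraries from each hemisphere of Ctrl mice and 3 from each hemisphere of cKO mice, 8 mice in all, of which 6 gave both hemispheres. The Cre recombinase is driven by the Cx3cr1 promoter, which is active in microglia and in many monocytes and macrophages, and no sham or naive library was analysed here. In each sentence of values below, the Ctrl libraries follow the mouse order 3541, 3545, 3546 and 3551, the cKO CL libraries the order 788, 791 and 3592, and the cKO IL libraries the order 784, 791 and 3592.

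Myelin is the lipid-rich membrane that oligodendrocytes wrap around axons in the central nervous system. MBP and MOBP are cytoplasmic proteins of its compacted layers, MAG and CNP belong to the parts that stay uncompacted, MOG sits on the outermost surface, CLDN11 forms the tight junctions between wraps, and MAL is a proteolipid of the lipid rafts that carry membrane to the sheath. Microglia and macrophages take up myelin debris after injury, and the Mbp gene also gives rise to golli transcripts, which are made in immune cells as well as in oligodendrocytes.

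In coordinates of mouse build GRCm38 with the GENCODE M21 annotation, all 7 are protein-coding genes, and each has 1 value a library. Mbp (ENSMUSG00000041607) lies on chromosome 18, positions 82475146 to 82585637, on the plus strand. Mobp (ENSMUSG00000032517) covers chr9:120149707-120181484 and Cnp (ENSMUSG00000006782) chr11:100574904-100591729, both on the plus strand. Cldn11 (ENSMUSG00000037625) covers chr3:31149920-31164324 on the plus strand. Mag (ENSMUSG00000036634, chr7:30899176-30914873), Mog (ENSMUSG00000076439, chr17:37010743-37023398) and Mal (ENSMUSG00000027375, chr2:127633226-127656695) are read from the minus strand. Cnp shares 154 exon bases with Dnajc7, a gene on the other strand at 63.0 to 180 CPM, the reads of a gene among 1000000 reads counted. The Smart-Seq v4 kit does not mark strand, so reads in those bases could belong to either gene. Mobp shares 79 exon bases with Gm38642, a non-coding transcript on its own strand.

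The members were detected in every library, at low to moderate levels beside the markers of the sorted cells. The 7 together summed to 213 to 245 CPM in the CL and 175 to 223 CPM in the IL hemisphere of Ctrl mice, and to 162 to 200 and 194 to 213 CPM in those of cKO mice, while 10 microglia and macrophage markers summed to 21061 to 39926 CPM. Those defining markers, among them Itgam (the gene of CD11b), Cx3cr1 and Csf1r, were present in every library. Depth ran from 12.2 to 41.6 M reads a library, recovered from the smallest step between values.

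The members differed from each other in level far more than most of them differed between groups. Per kilobase of exon in Ctrl CL (n = 4), Cnp was highest at 29.1 ± 3.16 CPM (SD), followed by Mag at 9.35 ± 1.84, Mbp at 6.91 ± 0.302 and Mal at 4.31 ± 1.37. Mobp had 1.98 ± 0.640, Mog 1.22 ± 0.737 and Cldn11 0.346 ± 0.302 CPM per kilobase. Mag and Mbp overlapped in their libraries (6.87 to 11.3 against 6.54 to 7.26), as did Mal and Mobp (2.60 to 5.63 against 1.22 to 2.69), Mobp and Mog (0.310 to 2.04 for Mog) and Mog and Cldn11 (0.0514 to 0.732 for Cldn11), so the ranges of these neighbours in the order did not separate. Within a library, Mal was above Mobp and Mog above Cldn11 in 4 of 4, and Mag above Mbp and Mobp above Mog in 3 of 4. The length used was the union of all annotated exons of a gene, 8469 bases for Mbp and 4072 for Mag, so the order depends on it. In CPM not divided by length, the Ctrl CL mean of Mbp (58.5) was above that of Mag (38.1), and Mobp (13.6) above Mal (12.0).

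The steadiest member was also the most abundant. Between the lowest and the highest of the 14 libraries, Cnp varied 1.55-fold, Mbp 2.20-fold and Mag 2.59-fold. Mal varied 7.54-fold and Mobp 8.54-fold. Mog varied 15.7-fold and Cldn11 24.1-fold, at 8 to 102 reads for Mog and 2 to 32 reads for Cldn11, so that counting error alone is large in the lowest libraries of both.

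**Figure D1:**
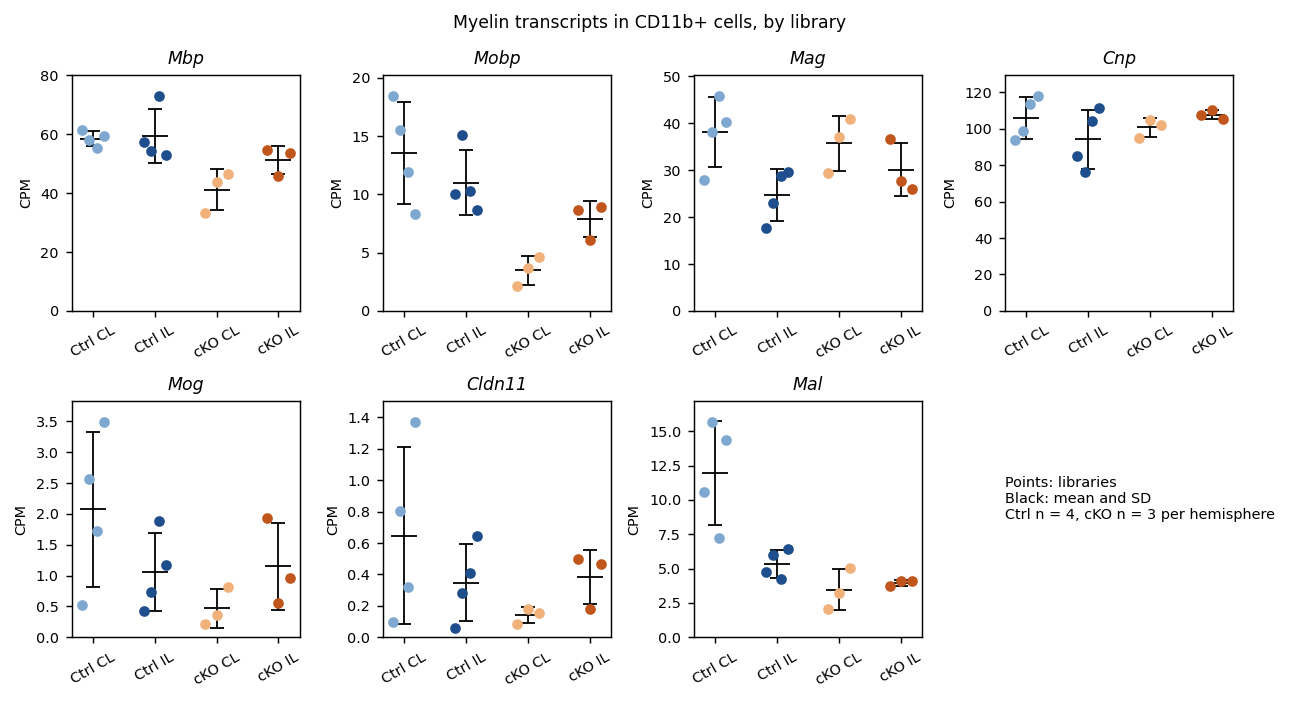
Deposited CPM of each member (vertical axes, each from 0) in the 14 libraries, by group on the horizontal axes. Points are libraries, and the black marks are the group mean and SD (Ctrl n = 4, cKO n = 3 in each hemisphere). The 3 cKO CL libraries lie lowest for Mobp, at 2.16 to 4.61 CPM, while Cnp spans 76.3 to 118 CPM over all 14 libraries.

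Differences are given as log2 fold changes of CPM after TMM scaling and with 1 added, which understates the change of low genes. Whether groups overlap is read from deposited CPM, and the cases where scaled values differ are named. A member was called where limma gave an adjusted p of at most 0.05, over all genes that passed the filter, and a fold change of at least 1.2. In bulk RNA, fewer cells of a type and less of its RNA per cell cannot be told apart. The members' levels in CL were compared between genotypes first, since the largest differences among them lay there.

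In the CL hemisphere, Mobp was lower in cKO than in Ctrl cells and was the 1 member called. In Mbp and Mal, every cKO library also lay below every Ctrl library, without a call. All 6 members tested had a negative fold change there. Of 16603 genes tested, 145 were called (0.873%), 77 higher (0.464%) and 68 lower (0.41%), and 9.99% of all tested genes had groups that did not overlap, against 3 of the 6 members. The median log2 fold change was -0.75 over the members and -0.06 over all genes tested.

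Mobp, which encodes myelin-associated oligodendrocyte basic protein, stood at 18.4, 15.5, 11.9 and 8.34 CPM in Ctrl CL and at 2.16, 3.71 and 4.61 CPM in cKO CL. Every cKO library lay below every Ctrl library. The log2 fold change was -1.70 ± 0.33 (SE), with a 95% confidence interval of -2.43 to -0.96 (limma, adjusted p = 0.0466). Leaving out 1 library ended the call in 6 of 7 cases, with adjusted p between 0.0585 and 0.217 in those 6 and log2 fold changes between -1.85 and -1.48, and the call was kept without the Ctrl library of mouse 3551 (adjusted p = 0.0212). It was also lost without the filter on low genes (adjusted p = 0.113).

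Mal, the raft proteolipid, stood at 10.6, 15.6, 7.24 and 14.4 CPM in Ctrl CL and at 2.08, 3.24 and 5.07 CPM in cKO CL. Its groups did not overlap. Its log2 fold change was -1.55 ± 0.32 (interval -2.26 to -0.85), and the limma adjusted p was 0.0551, just past the threshold. It was called in 5 of 15 alternatives, among them the fit with all 14 libraries (adjusted p = 0.0136) and without the Ctrl library of mouse 3546 (adjusted p = 0.0189) or the cKO library of mouse 3592 (adjusted p = 0.0482).

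Because Mobp and Mal had the largest of these differences and Cnp the least change in level across libraries, the bases before the start of each are printed (RefSeq, GRCm38.p6, 5′ to 3′ on the gene's own strand). The printed run opens 250 bases before the RefSeq start and ends 1 base before the part that GENCODE annotates as the gene, which leaves 215 bases of Mobp and Cnp and 250 of Mal. Windows of 250 bases were found for 6 of the 7 members. Capitals mark matches, on either strand, to 4 short motifs: ACAAAG, the core of SOX-family sites (16.5% of 32851 promoter windows hold at least 1), GGGCGG, the GC box (32.7%), TATAAA (12.4%) and CAGCTG, an E-box (13.0%). The printed runs are chr9:120149492-120149706 on the plus strand for Mobp, chr2:127656696-127656945 on the minus strand for Mal and chr11:100574689-100574903 on the plus strand for Cnp.
Mobp: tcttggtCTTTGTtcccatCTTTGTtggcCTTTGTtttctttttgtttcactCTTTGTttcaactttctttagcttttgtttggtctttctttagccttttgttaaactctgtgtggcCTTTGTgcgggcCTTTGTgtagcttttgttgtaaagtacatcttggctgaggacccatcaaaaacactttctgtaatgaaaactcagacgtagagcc
Mal: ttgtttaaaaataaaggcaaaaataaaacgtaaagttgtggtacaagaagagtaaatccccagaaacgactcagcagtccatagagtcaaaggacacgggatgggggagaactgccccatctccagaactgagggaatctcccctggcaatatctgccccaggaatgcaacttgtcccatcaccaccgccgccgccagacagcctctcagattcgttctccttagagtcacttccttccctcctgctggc
Cnp: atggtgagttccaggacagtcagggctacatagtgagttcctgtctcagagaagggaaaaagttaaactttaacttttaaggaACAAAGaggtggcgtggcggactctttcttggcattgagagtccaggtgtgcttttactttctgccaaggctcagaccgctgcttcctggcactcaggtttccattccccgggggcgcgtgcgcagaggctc
The Mobp window of 250 bases held 6 matches to ACAAAG, a number reached by 1 of the 32851 windows, itself included, and none to the other motifs. All 6 are in the reverse orientation, CTTTGT. Cnp held 1 match to ACAAAG and, past the printed run, 2 to the GC box, and Mal held none of the 4 motifs. These matches describe the letters of the windows, and no measurement here bears on factor binding.

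Mbp, the major protein of the compacted layers, stood at 61.5, 58.0, 55.3 and 59.3 CPM in Ctrl CL and at 33.2, 43.9 and 46.4 CPM in cKO CL. The 3 cKO libraries lay below all 4 Ctrl libraries. A log2 fold change of -0.52 ± 0.17 was not called (limma, adjusted p = 0.307), nor in any of 15 alternatives.

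Mog, the outer-surface glycoprotein, stood at 0.529, 2.56, 1.73 and 3.48 CPM in Ctrl CL and at 0.221, 0.364 and 0.813 CPM in cKO CL. The Ctrl library of mouse 3541 lay among the cKO libraries. The gene had a log2 fold change of -0.98 ± 0.31 (limma, adjusted p = 0.274), and without that library it was -1.26 and called (adjusted p = 0.0473). That was the 1 call in 15 alternatives, and under the others the adjusted p rose to as much as 0.713.

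Cldn11, the tight junction protein of the sheath, was too low to pass the filter in CL. It stood at 0.0962, 0.802, 0.318 and 1.37 CPM in Ctrl and at 0.0830, 0.182 and 0.155 CPM in cKO. The groups overlapped. A two-sided exact permutation test of log2 deposited CPM + 1, without scaling, gave a difference of -0.47 over all 35 assignments (p = 0.229).

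The 2 members of uncompacted myelin were not called in CL. Mag stood at 28.0, 38.1, 45.8 and 40.4 CPM in Ctrl and at 29.4, 37.0 and 40.9 CPM in cKO, with a log2 fold change of -0.09 ± 0.18 (interval -0.47 to 0.30; limma, adjusted p = 0.891). Cnp, a phosphodiesterase of the oligodendrocyte cytoplasm, stood at 93.9, 98.6, 113 and 118 CPM in Ctrl and at 94.99, 105 and 102 CPM in cKO. Its log2 fold change was -0.08 ± 0.13 (interval -0.37 to 0.21; limma, adjusted p = 0.870). Both sets of groups overlapped.

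Markers of other cell types had these values in the same comparison, with 0 called in the lists below, and their part in the members' differences was not tested. The 7 neutrophil markers summed to 458 to 6046 CPM in Ctrl CL and 454 to 1294 CPM in cKO CL, and all 7 had a negative log2 fold change (median -1.40, 0 called). Endothelial markers summed to 124 to 294 CPM against 96.2 to 177 CPM, with 8 of the 9 markers tested negative (median -0.64, 0 called). Oligodendrocyte progenitor markers had a median of 0.07 over 5 tested and the lineage transcription factors one of -0.06 over 8, with 0 called in either list.

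The other mature oligodendrocyte and myelin genes (28 listed) were described next to the members, and the list was drawn up with earlier results of these data known. In CL, 25 of the 27 tested had a negative fold change and 1 was called lower. That gene was Tspan2, a tetraspanin found in oligodendrocytes, which had a log2 fold change of -1.17 ± 0.22 (limma, adjusted p = 0.0388). The list's median was -0.36. The highest-level genes of this list, Trf (transferrin) at 2389 ± 293 CPM and Enpp2 (autotaxin) at 623 ± 423 CPM in Ctrl CL, are also made by cells other than oligodendrocytes.

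**Figure D2:**
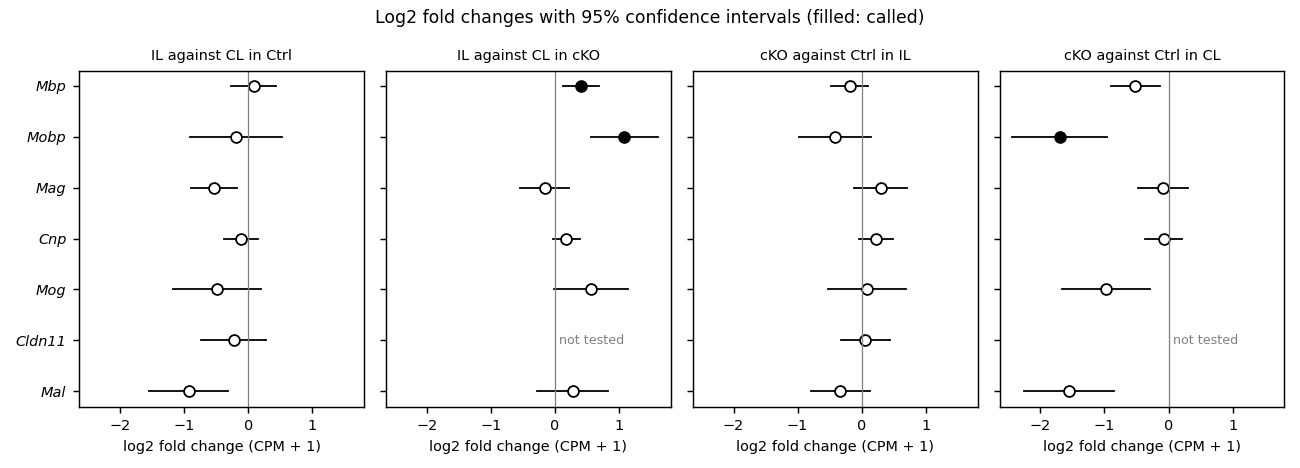
Log2 fold changes (horizontal axes, CPM + 1) of the 7 members (vertical axes) in the 4 comparisons between pairs of groups. Points are limma estimates, lines 95% confidence intervals, and filled points were called. Mobp at -1.70 is the called point of the CL comparison between genotypes, and Mobp at 1.080 and Mbp at 0.40 are those of the comparison between hemispheres in cKO.

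In the IL hemisphere, where the lesion lies, no member was called between genotypes. Of 16919 genes tested, 111 were called (0.656%), 60 higher (0.355%) and 51 lower (0.301%), and 10.3% had groups without overlap, against 1 of the 7 members. The members' log2 fold changes ran from -0.41 to 0.30, with a median of 0.06 against 0.01 over all genes tested. No member was called in any of 15 alternatives.

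Mobp stood at 10.01, 15.1, 10.3 and 8.63 CPM in Ctrl IL and at 8.66, 6.11 and 8.90 CPM in cKO IL. The ranges overlapped, and the log2 fold change was -0.41 ± 0.25 (interval -0.98 to 0.15; limma, adjusted p = 0.729). Mal stood at 4.75, 5.97, 4.25 and 6.40 CPM in Ctrl IL and at 3.72, 4.08 and 4.10 CPM in cKO IL. It was the member whose groups did not overlap in deposited CPM, though they did after scaling, with a log2 fold change of -0.33 ± 0.20 (limma, adjusted p = 0.745).

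Mbp stood at 57.5, 54.3, 73.0 and 53.0 CPM in Ctrl IL and at 54.5, 45.7 and 53.6 CPM in cKO IL. The groups overlapped, and the log2 fold change was -0.19 ± 0.13 (limma, adjusted p = 0.776). Mag stood at 17.7, 23.1, 28.8 and 29.6 CPM in Ctrl IL and at 36.6, 27.6 and 26.1 CPM in cKO IL, and Cnp at 84.9, 76.3, 104 and 111 CPM against 107, 110 and 105 CPM. Their log2 fold changes were 0.30 ± 0.18 and 0.22 ± 0.12 (limma, adjusted p = 0.735 and 0.671). In Mag the cKO library of mouse 784 was the highest of the 7, and in both genes the groups overlapped.

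Mog and Cldn11 were low and scattered in IL. Mog stood at 0.427, 0.740, 1.88 and 1.17 CPM in Ctrl IL and at 1.93, 0.549 and 0.967 CPM in cKO IL. Cldn11 stood at 0.0569, 0.284, 0.409 and 0.643 CPM in Ctrl IL and at 0.497, 0.183 and 0.467 CPM in cKO IL. The groups overlapped in both genes. The log2 fold changes of 0.09 ± 0.27 for Mog and 0.06 ± 0.17 for Cldn11 (limma, adjusted p = 0.967 and 0.965) turned negative without the Ctrl library of mouse 3541 (-0.06 and -0.05) or the cKO library of mouse 784 (-0.18 and -0.01).

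The other mature oligodendrocyte genes gave 0 calls of 26 tested in IL, 12 positive and 14 negative, with a median of -0.04. At an unadjusted p under 0.05, 1 of the 26 passed. The neutrophil and endothelial sums were 138 to 806 and 115 to 179 CPM in Ctrl IL and 185 to 280 and 136 to 193 CPM in cKO IL.

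Between hemispheres of Ctrl mice, no member was called, and the 2 that came nearest were Mal and Mag, both lower in the lesioned hemisphere. Of 16376 genes tested, 1088 were called (6.64%), 601 higher (3.67%) and 487 lower (2.97%), and 17.7% had groups without overlap, against 1 of the 7 members. Of the 7 members, 6 had a negative fold change, with a median of -0.23 against -0.04 over all genes tested.

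Mal averaged 12.0 ± 3.81 CPM in CL and 5.35 ± 1.01 CPM in IL cells of Ctrl mice (SD, n = 4 each), and all 4 IL libraries lay below all 4 CL libraries in deposited CPM, but not after scaling. Its log2 fold change was -0.93 ± 0.28 (interval -1.55 to -0.31; limma, adjusted p = 0.0805). Within a mouse the log2 difference ran from -1.18 to -0.61, lower in 4 of 4 mice. With the mouse as a replicate block, Mal was called (limma, adjusted p = 0.00713).

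Mag averaged 38.1 ± 7.47 CPM in CL and 24.8 ± 5.53 CPM in IL cells of Ctrl mice (SD, n = 4 each). The IL libraries of 3546 and 3551, at 28.8 and 29.6 CPM, passed the CL library of 3541, at 28.0 CPM, while after scaling the groups did not overlap. The log2 fold change was -0.53 ± 0.16 (interval -0.89 to -0.17; limma, adjusted p = 0.0837), lower in 4 of 4 mice by -0.62 to -0.26 on the log2 scale. With the mouse as a replicate block, Mag was called (limma, adjusted p = 0.0115), so that the paired fit called 2 of 7 members, beside 20.5% of all genes tested, and the unpaired fit called 0, beside 6.64%.

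The other 5 members showed no call between the hemispheres of Ctrl mice in either fit. The log2 fold changes were 0.08 ± 0.16 for Mbp, -0.19 ± 0.32 for Mobp, -0.49 ± 0.31 for Mog, -0.11 ± 0.12 for Cnp and -0.23 ± 0.23 for Cldn11. In deposited CPM, Cnp was lower in IL in 4 of 4 Ctrl mice, while Mbp, Mobp, Mog and Cldn11 were lower in 3 of 4. Scaling turned 1 mouse each of Cnp, Mobp and Mbp the other way, and in Mbp the log2 difference of the mice then ran from -0.01 to 0.42. The list of other mature oligodendrocyte genes had 0 of 27 called, 21 negative, with a median of -0.31.

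Markers of other cells had these values between the hemispheres of Ctrl mice, and their part in the values of Mal and Mag was not tested. All 7 neutrophil markers were negative (median -2.77, 0 called and 6 at an unadjusted p under 0.05 by limma). Of the 9 endothelial markers tested, 6 were negative and 3 positive (median -0.53), with 0 called. The endothelial marker nearest to a call, Kdr, was higher in IL (0.90 ± 0.24; limma, adjusted p = 0.0546). Of the 10 microglia and macrophage markers, 4 were called lower (Cx3cr1, P2ry12, Tmem119 and Sall1; list median -0.55), and 3 of 6 monocyte markers were called higher (Ccr2, Ms4a4c and Vcan). The monocyte list was mixed, with 4 positive and 2 negative (median 0.56). Its negative markers were Ly6c2 at -1.03 ± 0.69 and Chil3 at -0.68 ± 0.85, neither called.

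**Figure D3:**
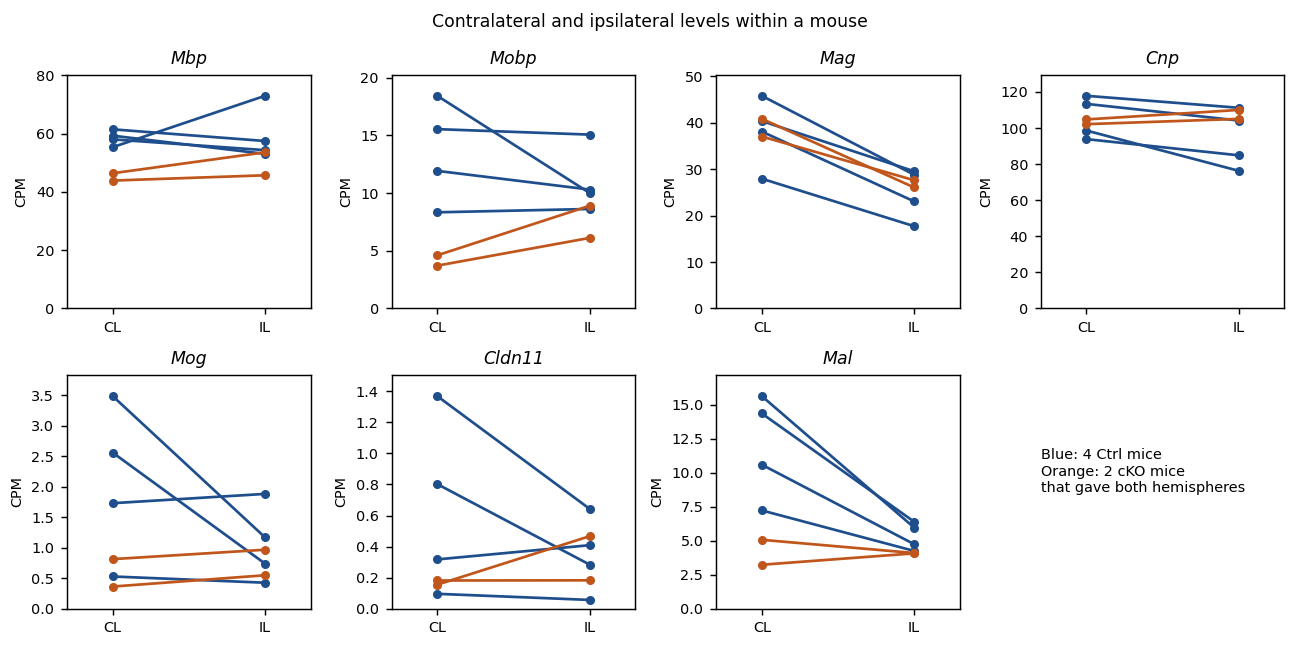
Deposited CPM (vertical axes, from 0) of each member in the CL and IL hemispheres of the 6 mice that gave both, joined by a line. Blue lines are the 4 Ctrl mice and orange lines the 2 cKO mice. Mag is lower in IL in all 6 mice and Mal in all 4 Ctrl mice, while Mobp is higher in IL in both cKO mice.

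Between hemispheres of cKO mice, Mobp and Mbp were the members called higher in the lesioned hemisphere. Of 16758 genes tested, 3736 were called (22.3%), 2138 higher (12.8%) and 1598 lower (9.54%). Of all genes tested, 42.4% had groups without overlap, against 2 of the 6 members tested. With 22.3% of all genes called, 2 calls among 6 members are no result particular to the members. The median log2 fold change was 0.34 over the members and 0.02 over all genes tested.

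Mobp was at 3.49 ± 1.24 CPM in cKO CL and 7.89 ± 1.54 CPM in cKO IL (SD, n = 3 each), and every IL library lay above every CL library. The log2 fold change was 1.080 ± 0.23 (interval 0.56 to 1.60; limma, adjusted p = 0.0136). It was higher in IL in both mice that gave both hemispheres, by 0.75 and 0.84. With the mouse as a replicate block, which rests on those 2 mice, its limma log2 fold change was 0.79 and the adjusted p 0.0631. It was also lost in the fit of all 14 libraries (adjusted p = 0.0620) and without the IL library of mouse 784 (adjusted p = 0.0578), and kept in the other 12 of 15 alternatives.

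Mbp was at 41.2 ± 7.002 CPM in cKO CL and 51.3 ± 4.83 CPM in cKO IL (SD, n = 3 each), with groups that overlapped in deposited CPM and not after scaling. The log2 fold change was 0.40 ± 0.12 (limma, adjusted p = 0.0498). The call lay at the threshold. It was kept in 1 of 15 alternatives, without the CL library of mouse 3592 (adjusted p = 0.0279), and under the others the adjusted p rose to as much as 0.293.

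Cnp, Mag, Mog and Mal were not called between the hemispheres of cKO mice. The log2 fold changes were 0.18 ± 0.09 for Cnp (adjusted p = 0.207), -0.16 ± 0.17 for Mag (adjusted p = 0.525), 0.56 ± 0.25 for Mog (adjusted p = 0.149) and 0.28 ± 0.24 for Mal (adjusted p = 0.445), all by limma. Cnp was the other tested member without overlap in deposited CPM, with its 3 IL libraries at 105.1 to 110 CPM just above its 3 CL libraries at 94.99 to 104.8 CPM. Mag was lower in IL in both paired cKO mice, as in the 4 Ctrl mice.

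Cldn11 did not pass the filter in cKO. Its 3 IL libraries, at 0.497, 0.183 and 0.467 CPM, lay above its CL libraries, at 0.0830, 0.182 and 0.155 CPM, though 2 of them were nearly level. A two-sided exact permutation test, again without scaling, gave a difference of 0.27 on the log2 scale and p = 0.1, the smallest that 20 assignments allow.

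Markers of other cells had these values in the same comparison, and their part in the values of Mobp and Mbp was not tested. Of 7 neutrophil markers, 5 were called lower in IL (S100a8, S100a9, Ly6g, Ngp and Camp; list median -1.32). Monocyte markers had 3 of 6 called higher (Plac8, Ms4a4c and Vcan; median 1.12), and endothelial markers 2 of 9 (Kdr and Esam; median 0.30). The same 4 microglia markers as in Ctrl were called lower (list median -0.50).

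Of the other mature oligodendrocyte genes in cKO, 23 were tested, 16 positive and 7 negative (median 0.14), and 3 were called, beside 22.3% of all genes. Apod, an apolipoprotein, was higher in IL (1.17 ± 0.21; limma, adjusted p = 0.00761), and Plekhh1 (-0.58 ± 0.17, adjusted p = 0.0433) and Trf (-0.53 ± 0.16, adjusted p = 0.0483) were lower. Of the 8 lineage transcription factors tested (6 positive and 2 negative, median 0.10), 1 was called, Olig1, which was higher (0.89 ± 0.20; limma, adjusted p = 0.0163). The progenitor list was mixed between hemispheres, with 4 of 5 tested positive in Ctrl (median 0.29) and 4 of 7 in cKO (median 0.12). In each genotype 2 of its genes were called, Cspg4 and Vcan. Cspg4, the NG2 proteoglycan, was higher in IL in both genotypes (2.59 ± 0.26 in Ctrl and 2.73 ± 0.35 in cKO, limma, adjusted p = 5.86e-04 and 0.00263). Pdgfra, the receptor that defines these progenitors, was at 0.528 to 0.957 CPM in the group means. It was not called (0.29 ± 0.24 in Ctrl and -0.004 ± 0.29 in cKO). Cspg4 is also made by pericytes and some myeloid cells.

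A test of whether the hemisphere difference itself differed between genotypes called 0 genes of 18476 (0%) by limma, with 479 at an unadjusted p under 0.05. All 7 members had a positive interaction, meaning a larger IL minus CL difference in cKO. The largest were Mobp at 1.26 ± 0.45 (unadjusted p = 0.0132), Mal at 1.199 ± 0.41 (unadjusted p = 0.0111) and Mog at 1.04 ± 0.45 (unadjusted p = 0.0361), each with a limma adjusted p of 0.99997. Mbp, Mag, Cnp and Cldn11 had 0.32, 0.37, 0.28 and 0.51. The median was 0.51 over the members and 0.04 over all genes tested. The 4 comparisons share libraries, so their values for a member are not independent.

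The members did not vary as a single block across the libraries. Over the 14 libraries, Mbp and Mobp were most alike (Pearson's r = 0.90 of log2 CPM + 1), followed by Mog and Cldn11 (r = 0.88) and Mobp and Mal (r = 0.71). With the group means taken out, r was 0.75, 0.84 and 0.45 for these pairs and 0.69 for Mag and Mog. Mobp against Cldn11 gave 0.24 and -0.37. These are descriptions over libraries that share groups, mice and depth.

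**Figure D4:**
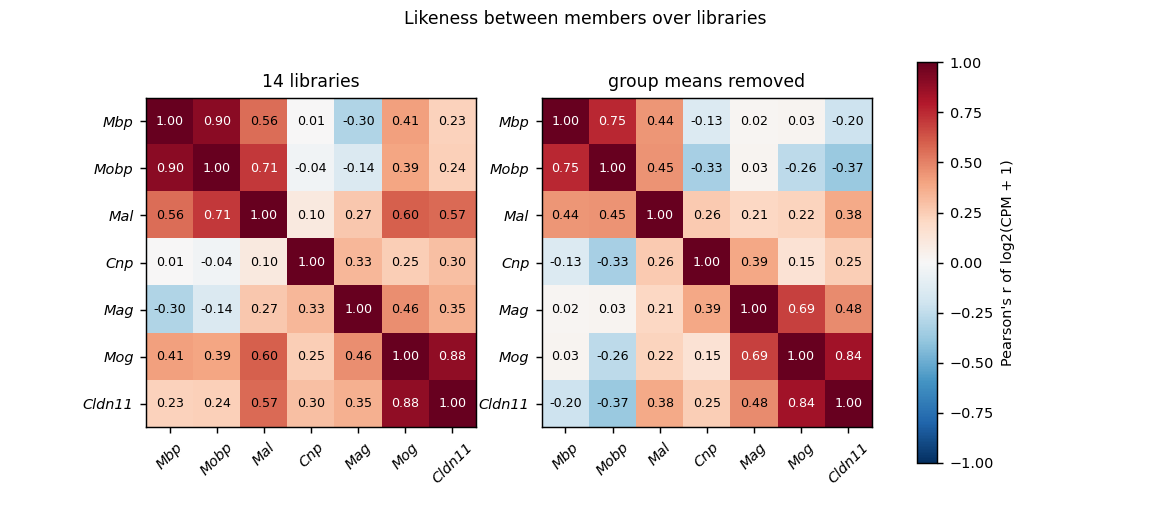
Pearson's r of log2(CPM + 1) for each pair of members, over the 14 libraries (left) and after each group's mean was taken out (right), from -1 in blue to 1 in red. Mbp with Mobp (0.90 and 0.75) and Mog with Cldn11 (0.88 and 0.84) stand out in both panels.

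Genes outside the set whose pattern over the 14 libraries was most like the mean of the members' standardised log2 values were sought among 13645 genes at 1 CPM or more. The nearest 10 were Gmpr2 (r = 0.83), Ccdc32 (r = 0.83), Lgi3 (r = 0.81), Ncf1 (r = 0.80), Tha1, Oaf, Chtf8, Eya4, Trim30c and Nap1l4 (r = 0.78). With group means taken out, the nearest 5 were Gmpr2 (r = 0.92), Cdr2l (r = 0.90), Rundc3a (r = 0.85), Gm7367 (r = 0.82) and Srbd1 (r = 0.81). Of the 28 other mature oligodendrocyte genes, 16 reached 1 CPM, and none of those 16 was among them.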

How the data were processed

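The deposited table holds gene values that the authors made with STAR alignment and Partek 8.0 on build mm10, per the submitters' processing notes. Although presented as raw counts, each deposited column sums to 1000000, so its unit is CPM (reads per 1000000 counted). Between 78.2% and 83.2% of low values were whole multiples (tolerance 0.03 reads) of the smallest step, too few for a count test. The authors' tables of their own comparisons (p-values, FDR, ratios, fold changes and group means) were not used.

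CPM were divided by TMM factors (30% of M and 5% of A trimmed) and log2-transformed with a pseudocount of 1. Genes reaching the CPM of 10 reads at median depth in as many libraries as the smaller group, with at least 15 reads in all, were tested with limma 3.58.1 in R 4.3.3 (lmFit, eBayes with trend), with Benjamini-Hochberg adjustment over all genes tested. Calls needed an adjusted p of at most 0.05 and a fold of at least 1.2. The 5 comparisons used only their own groups, except the interaction (14 libraries). The scripts were tested on simulated data. Single values were tested by two-sided exact permutation of log2 CPM + 1 without scaling. Figures were drawn with matplotlib 3.10.9.

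Groups and mouse numbers came from the labels. Same-numbered CL and IL libraries come from 1 mouse, and their deviations from group means correlated at 0.182 to 0.607 in the 6 mice, against -0.535 to 0.502 in 19 other pairings. Alternatives were 3 other scalings, no filter, pseudocounts of 0.5 and 0.1, a single fit of 14 libraries, the mouse as a block or random effect, and each library left out. All 7 members were named in every comparison. The rule for the lists was to give counts and to name up to 4 genes of highest CPM plus those called. Genes of like pattern were the 10, or 5 with group means removed, of highest Pearson's r. Pdgfra and the marker genes named as checks fell outside that rule and were chosen after their values were seen. The targeted gene and some listed genes are not reported here. The members and lists were chosen with earlier results of these data known.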

Additional observations from a re-analysis of the deposited data

How the results depend on the processing

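Over 558 alternative values of the members' log2 fold changes, 515 kept their direction and side of the threshold, 24 fell out of the call, 13 entered it and 6 changed sign. The number of members called between genotypes in IL (0) and by the interaction (0) was the same under every alternative run. Without 1 library, calls over all genes between genotypes in IL ran from 46 to 280, beside 111 in the main fit. In Ctrl mice between hemispheres, 0 members were called, but 1 with unscaled CPM, 1 with all 14 libraries in a single fit, 2 with the mouse as a replicate block, 2 with the mouse as a random effect, and 0 to 1 without 1 library. Calls over all genes rose from 6.64% to 10.9% in the single fit, 20.5% with the block and 23.1% with the random effect. Without 1 library they numbered 481 to 1429, beside 1088. In cKO mice between hemispheres, 2 were called, but 1 each with unscaled CPM, upper-quartile scaling, median-ratio scaling, no filter, a pseudocount of 0.5, a pseudocount of 0.1 and the random effect, 0 with the single fit, 0 with the replicate block (2 complete pairs), and 0 to 2 without 1 library. Calls over all genes went from 22.3% to 7.68% in the single fit, 13.8% with the block and 16.9% with the random effect. Without 1 library they numbered 1870 to 3533, beside 3736. Between genotypes in CL, 1 was called, but 0 with no filter (which tests more genes), 2 with a pseudocount of 0.1, 2 with the single fit, 2 with the random effect, and 0 to 1 without 1 library. Calls over all genes there were 0.873%, 1.41% in the single fit and 1.59% with the random effect. Without 1 library they numbered 72 to 163, beside 145. The mouse block changed no other call of a member. Sign changes occurred when 1 library was left out: Mobp between Ctrl hemispheres ran from -0.40 to 0.0142, Mog between genotypes in IL from -0.18 to 0.28, Cldn11 there from -0.0493 to 0.159, and Mag between genotypes in CL from -0.17 to 0.0162. The causes were not tested. With 3 or 4 libraries a group, and as few as 2 reads of Cldn11 and 8 of Mog in a library, small changes of these low members were not detectable. The 13 marker lists were drawn up with results known and were not tested as sets.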

Other observations

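The other stages of the oligodendrocyte lineage and the other cell types a CD11b+ preparation can hold were at these levels. Of the premyelinating list (7 genes, 265 to 383 CPM summed), Sirt2, Itpr2, Fyn and Tcf7l2 had the highest levels. Fyn, a kinase also found in myeloid cells, was higher in IL in both genotypes (0.75 ± 0.13 in Ctrl and 0.56 ± 0.11 in cKO; limma, adjusted p = 0.00912 and 0.0107), and Itpr2 (-0.73 ± 0.14, adjusted p = 0.00879) and Tcf7l2 (-0.55 ± 0.11, adjusted p = 0.0114) were lower in IL in cKO. In Ctrl, Itpr2 had nearly the same difference without being called (-0.73 ± 0.25, adjusted p = 0.124), and Tcf7l2 had -0.21 ± 0.23 (adjusted p = 0.685). Of the progenitor list (median 0.29 in Ctrl and 0.12 in cKO between hemispheres), Vcan, a proteoglycan that monocytes also make, was higher in IL in both genotypes (1.11 ± 0.26 and 1.33 ± 0.38; limma, adjusted p = 0.0342 and 0.0409). Apart from Vcan and Cspg4, no gene of that list was called between hemispheres. The peripheral myelin markers summed to 416 to 630 CPM, of which Pmp22, which other cells also make, averaged 439 to 555 CPM in the 4 groups.

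Neuronal markers summed to 3.39 to 22.9 CPM, astrocyte markers to 170 to 330 CPM, ependymal and choroid plexus markers to 88.2 to 1762 CPM and monocyte markers to 80.0 to 666 CPM. No neuronal or ependymal marker was called in any comparison. Of 11 astrocyte markers, Gfap was called higher in IL and Slc1a3 lower in both genotypes, with S100b also higher and Slc4a4 lower in cKO. Of 10 microglia and macrophage markers, Fcrls was called lower in cKO than in Ctrl in both hemispheres (-2.99 ± 0.14 in IL and -3.08 ± 0.22 in CL; limma, adjusted p = 3.17e-05 and 3.54e-05). The dissociation response genes summed to 27590 to 42442 CPM in CL and 19340 to 22896 CPM in IL cells. All 10 had a negative IL against CL difference in both genotypes, with 0 called in Ctrl (4 at an unadjusted p under 0.05, limma) and 4 called lower in cKO (Fos, Jun, Hspa1a and Hspa1b). Between genotypes in CL, 7 of the 10 were positive (median 0.28) and 0 were called. The heat shock genes Hspa1a (-1.82 ± 0.41; limma, adjusted p = 0.0832) and Hspa1b (-2.32 ± 0.47, adjusted p = 0.0529) had the largest differences of the list, and their cKO libraries all lay below the Ctrl libraries.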
